A study of Mus musculus with 12 samples.

Results

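The SOCS family of mouse (*Socs1* to *Socs7*) and its relative *Cish* make up the 8 genes described here, taken by name from a table of 48526 genes, and all 8 passed the filter on low counts. They were followed in bone marrow-derived macrophages (BMDMs), which are macrophages grown from whole bone marrow with macrophage colony-stimulating factor, from 3 female C57Bl/6J mice. On day 7 of culture, cells from every mouse received 100 ng/mL Wnt3a, 100 pg/mL IL-4, both factors or neither (untreated), and RNA was sequenced 16 hr later. Each mouse gave 1 sample to each condition, so that errors and p-values measure the spread over 3 mice.

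SOCS proteins and CIS, the product of *Cish*, are the feedback inhibitors of cytokine signaling. Cytokine receptors activate JAK kinases, the JAKs phosphorylate STAT transcription factors, and STATs induce *Cish* and several *Socs* genes, whose proteins bind the receptor or the JAK and, through a SOCS box, recruit a ubiquitin ligase. In macrophages SOCS1 is known for restraining interferon and IL-4 signaling, and SOCS3 for restraining signaling through the receptor chain gp130.

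The table's columns for Wnt3a with and without IL-4 are not separate counts. In all 3 mice, 0 of the 48526 genes had a Wnt3a count outside the range of 1 to 2 times the Wnt3a+IL-4 count of the same mouse, whereas between 6681 and 8625 genes lay outside it for columns of different mice. The columns were therefore resolved into a pair of non-overlapping sets of counts per mouse. The difference is what remains of a mouse's Wnt3a column once its Wnt3a+IL-4 column is subtracted. The remainder is what is left of the Wnt3a+IL-4 column once the difference is subtracted in turn. Both come from Wnt3a-treated cells, but the labels do not say which came from cells that also received IL-4, and the values were not used to settle this. Comparisons of the difference or the remainder with untreated cells thus concern Wnt3a-treated cells of unknown IL-4 status. "Library" below means an untreated or IL-4 column, a difference or a remainder.

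Library totals lay between 13342492 and 17453377 counts. Levels are CPM, the count scaled to the library total, after TMM normalization, a scaling by factors that here lay between 0.948 and 1.09. Differences are log2 fold changes from edgeR's quasi-likelihood test on the counts, and a gene is called when its p-value, adjusted by the Benjamini-Hochberg method over all 12421 genes tested, is under 0.05. The median log2 correlation of a library with the others of its group lay between 0.986 and 0.991. The 10 macrophage markers, among them *Adgre1*, *Csf1r* and *Cd68*, summed to between 45800 and 70500 CPM in every library. *Lyz2* alone had 34000 to 57300 CPM. Against untreated cells, 5 of the 10 were called higher in the difference and 3 in the remainder, with 0 lower. Of all genes, 11.8% and 13.6% were called higher. *Fcgr1* (1.07 and 0.60) and *Itgam* (1.07 and 0.90) were among them. *Cd14* was called lower with IL-4 (-0.51) and, like *Fcgr1*, in the remainder against the difference (-0.57 and -0.47). Markers of other blood cells were mixed. At no more than 3 counts in any library were *Cd3e*, *Cd3g*, *Cd3d*, *Cd8a*, *Trac*, *Ms4a1*, *Ncr1*, *Ly6g*, *Mcpt8*, *Fcer1a* and *Prss34*. Among the others, *Mmp8*, a neutrophil collagenase, had 15.9 to 27.6 CPM in untreated cells, 66.4 to 105 for the difference and 41.8 to 63.1 for the remainder, and was called higher in both (2.14, edgeR adjusted p = 1.1e-05, and 1.37, edgeR adjusted p = 0.00047). *S100a9* fell by 0.68 on the log2 scale in the remainder (edgeR adjusted p = 0.013), and *Kit*, a mast cell and progenitor marker, was called lower in all 3 groups than in untreated cells (-0.97 with IL-4, -0.67 in the difference, -1.20 in the remainder; edgeR adjusted p = 0.023, 0.034 and 0.001). *Il7r* was measured in every library (53.3 to 113 CPM) and was not called against untreated cells. The part of these markers in the results was not tested. In bulk RNA, fewer cells of a type and less RNA per cell cannot be told apart.

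Positions are given in the mm10 genome. *Socs1* (ENSMUSG00000038037) spans chr16:10782240-10785536 on the minus strand, and *Cish* (ENSMUSG00000032578) spans chr9:107296026-107302784 on the plus strand. *Socs2* (ENSMUSG00000020027) lies at chr10:95385362-95417180 and *Socs3* (ENSMUSG00000053113) at chr11:117966079-117970047, both on the minus strand. *Socs4* (ENSMUSG00000048379, chr14:47276931-47296102), *Socs5* (ENSMUSG00000037104, chr17:87107679-87137839) and *Socs7* (ENSMUSG00000038485, chr11:97362551-97398542) lie on the plus strand. Counts of *Cish* are the least certain, since *Gm17040* and *Gm17041*, on the opposite strand, cover 11.5% of its exon bases and the sources used here do not give the strand setting of the counting. Of the 50-base stretches in the transcripts, 4.58% in *Socs2*, 6.14% in *Socs6*, 9.35% in *Cish* and 0.306% in *Socs4* also occur in another gene, and 0 in *Socs1*, *Socs3*, *Socs5* and *Socs7*.

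Promoter sequence from RefSeq (GRCm38.p6, the same assembly as mm10) was matched for 4 of the 8 genes: *Cish*, *Socs1*, *Socs3* and *Socs4*. Each promoter holds 250 bases before and 50 bases after the start of transcription in RefSeq. For *Cish* and *Socs3* that start lies inside the gene span given above, which is from GENCODE, so their stretches below lie inside it too. Searched on both strands were TTCNNNGAA and the same letters with 1 more base between TTC and GAA, which STAT proteins bind, GAAA repeated after any 2 bases, which interferon regulatory factors bind, and CTTTGA, the core that the TCF/LEF factors of the Wnt pathway bind. The stretches around the STAT and interferon matches are shown because *Cish*, *Socs1* and *Socs3* rose in the Wnt3a-treated groups below and had a match, with the matched letters in capitals and each sequence written 5′ to 3′ along the gene's own strand.
Cish, chr9:107296649-107296678 (+): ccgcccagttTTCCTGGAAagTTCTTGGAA
Socs1, chr16:10785597-10785626 (-): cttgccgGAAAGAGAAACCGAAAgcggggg
Socs3, chr11:117969502-117969531 (-): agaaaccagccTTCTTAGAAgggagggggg
*Cish* held TTCNNNGAA at 2 places, which begin 1 and 12 bases into the RefSeq transcript, and CTTTGA on the reverse strand at base 26. *Socs1* held 2 overlapping copies of the GAAA repeat that begin 83 and 77 bases before the start. *Socs3* held TTCNNNGAA once, 154 bases before the RefSeq start, and *Socs4* held 0 of the 4 motifs. Among all 32851 mouse promoters of this length, 8.3% held TTCNNNGAA, 6.95% its longer form, 3.44% the GAAA repeat and 16% CTTTGA. A match describes the letters in the window, and binding was not measured.

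Levels of different genes were compared only as CPM per kb of exon, with each gene's exon bases as its length. In untreated BMDMs the order was *Socs5* (6.39 CPM per kb ± 0.0531; SD, n = 3), *Socs7* (5.59 ± 0.625), *Socs3* (4.23 ± 0.526), *Socs4* (3.69 ± 1.12), *Socs6* (2.38 ± 0.309), *Socs1* (0.581 ± 0.137), *Cish* (0.198 ± 0.00986) and *Socs2* (0.0589 ± 0.0273). The ranges of the neighbours *Socs3* and *Socs4*, and of *Socs4* and *Socs6*, overlapped, and those of the other neighbours in the order did not. IL-4-treated cells had the same order, with *Socs5* at 8.26 ± 0.226 CPM per kb. There only the ranges of *Socs3* and *Socs4* overlapped among neighbours. In both Wnt3a-treated groups *Socs3* was first, at 15.5 ± 3.40 CPM per kb in the difference and 12.9 ± 4.08 in the remainder. *Socs1* was at 1.37 ± 0.455 CPM per kb in the difference, with a range that overlapped those of *Socs6* and *Cish*. In the remainder it was at 5.22 ± 1.64, where its range overlapped those of *Socs7*, *Socs5* and *Socs4*. Ranges also overlapped between *Socs7* and *Socs5* in both Wnt3a-treated groups, and between *Cish* and both *Socs4* and *Socs6* in the remainder. The order depends on the length taken for a gene, since with the longest transcript in place of all exon bases *Socs6* moved above *Socs4* in every group except the difference. *Socs5* then moved above *Socs7* in both Wnt3a-treated groups. Of the 8 genes, 6 kept their rank in untreated cells, 5 with IL-4, 6 in the difference and 2 in the remainder.

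**Figure D1:**
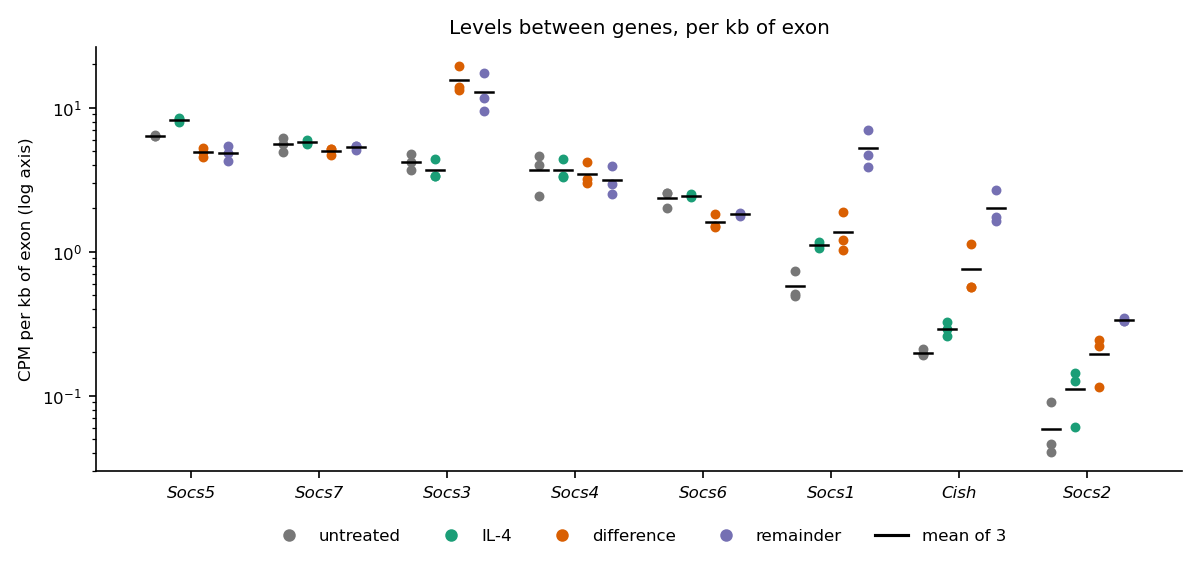
Levels of the 8 genes in CPM per kb of exon, on a log axis, for each of the 3 mice (points) with the mean (bar), in untreated cells, IL-4-treated cells, the difference and the remainder. *Socs5* is highest without Wnt3a and *Socs3* is highest in the difference (15.5) and the remainder (12.9), while *Socs1*, *Cish* and *Socs2* start lowest.

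By edgeR, 1 of the 8 genes was called with IL-4 alone, and 6 of the 8 in each of the Wnt3a-treated groups. The IL-4 call was that of *Socs5*, and it was lost under 15 of 24 other settings, among them each mouse left out in turn. Against untreated cells, 1 of 8 was called higher and 0 lower in IL-4-treated cells, where 3.4% of all genes tested were called (2.31% higher and 1.09% lower), and 2 of 8 were called with the mouse as a block. In the difference 4 were called higher (*Socs1*, *Socs2*, *Socs3* and *Cish*) and 2 lower (*Socs5* and *Socs6*), and these 6 did not overlap the untreated libraries, where 23.2% of all genes were called (11.8% higher and 11.4% lower) and 39.2% did not overlap. In the remainder the same 4 genes were called higher and the same 2 lower, again without overlap, where 25.3% of all genes were called (13.6% higher and 11.7% lower) and 35.6% did not overlap. The difference and the remainder share their untreated controls. The median log2 fold change of the 8 genes was 0.21 with IL-4, 0.57 for the difference and 0.77 for the remainder, and the median of all genes tested was within 0.03 of 0 in each.

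**Figure D2:**
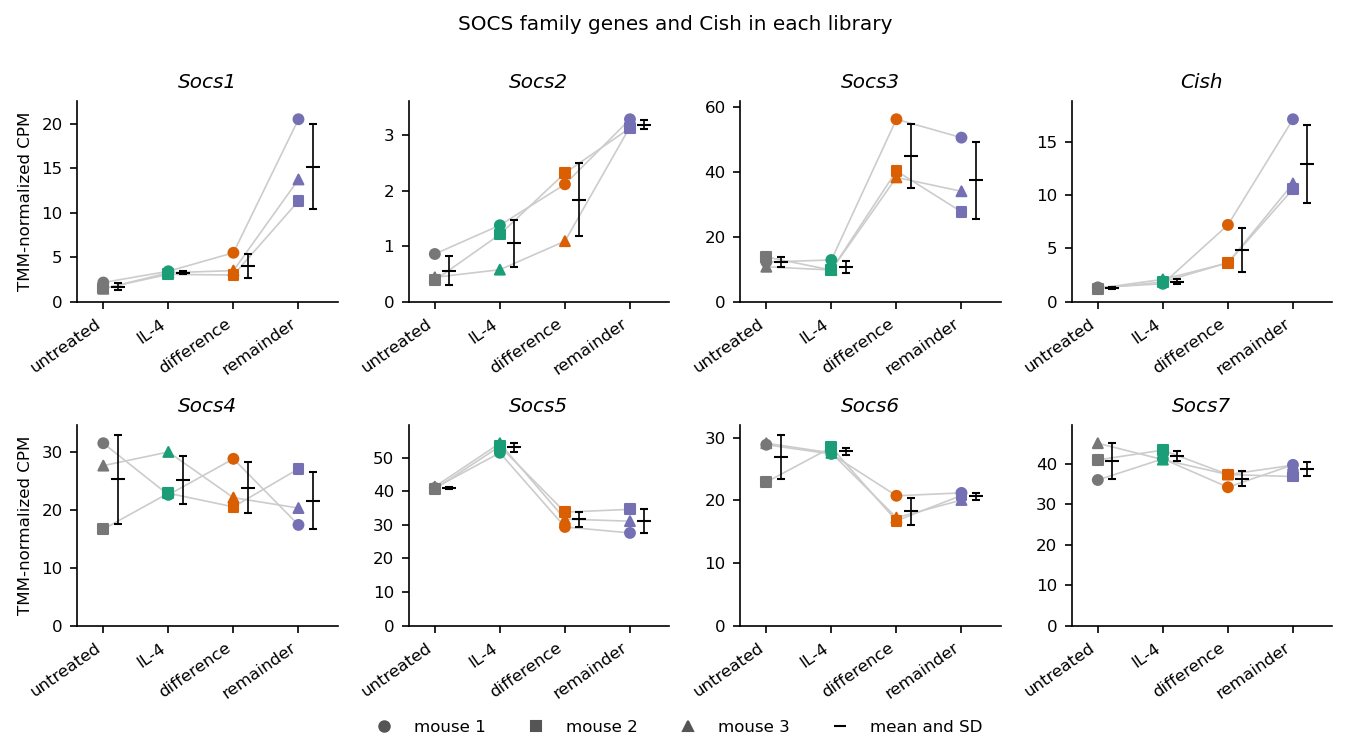
TMM-normalized CPM of each gene in each library, by mouse (marker shape, joined by grey lines), with the mean and SD of 3 mice in black. All 3 remainder values of *Socs1* and *Cish* stand above every other library, both Wnt3a-treated groups of *Socs3* stand above the groups without Wnt3a, and those of *Socs5* stand below them.

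*Socs1*, whose protein blocks JAK activity directly, had 2.15, 1.48 and 1.44 CPM in the untreated libraries of mouse 1, 2 and 3, from counts of 40, 23 and 23. It had 3.42, 3.07 and 3.25 CPM with IL-4, 5.49, 2.99 and 3.49 CPM in the difference, and 20.5, 11.3 and 13.7 CPM in the remainder. The untreated libraries were lowest and the remainder libraries highest in every mouse, with no overlap of either with the other groups, while the IL-4 and difference values overlapped. The remainder exceeded untreated cells by a log2 fold change of 3.15 ± 0.28 (SE, n = 3 mice; edgeR adjusted p = 1.3e-06), or 8.86-fold, and the difference exceeded them by 1.23 ± 0.29 (edgeR adjusted p = 0.0073). That second call was lost without mouse 3 (1.22, edgeR adjusted p = 0.1) and without the difference library of mouse 1 (0.91, edgeR adjusted p = 0.054). With IL-4 alone, the log2 fold change was 0.93 ± 0.30 and not called (edgeR adjusted p = 0.14), although the groups did not overlap, as was so for 19.8% of all genes. It was called when the mouse was kept as a block (0.95, edgeR adjusted p = 0.019), when all genes with at least 1 count were tested (0.91, edgeR adjusted p = 0.0048) and when mouse 1 was left out (1.11, edgeR adjusted p = 0.042).

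*Socs1* also separated the 2 Wnt3a-treated groups. The remainder stood above the difference 3.73-fold in mouse 1, 3.78-fold in mouse 2 and 3.93-fold in mouse 3, by the ratio of CPM. The fitted log2 fold change was 1.92 ± 0.25 (SE; edgeR adjusted p = 0.00036). *Socs1* and *Cish* were the 2 of the 8 genes called in this comparison, both higher in the remainder, where 5.25% of all genes were called (2.87% higher and 2.38% lower). The value of *Socs1* was 1.91 without mouse 3 but no longer called (edgeR adjusted p = 0.062).

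*Cish* encodes CIS, an inhibitor best known at receptors that signal through STAT5. It had 1.34, 1.22 and 1.25 CPM in untreated cells, from counts of 25, 19 and 20, and 1.68, 1.85 and 2.09 CPM with IL-4. It had 7.21, 3.66 and 3.64 CPM in the difference and 17.1, 10.6 and 11.1 CPM in the remainder. The 4 groups did not overlap, and in every mouse the order was untreated, IL-4, difference and remainder. The log2 fold change against untreated cells was 3.33 ± 0.29 in the remainder (edgeR adjusted p = 1.4e-06), or 10.1-fold, and 1.93 ± 0.31 in the difference (edgeR adjusted p = 0.00038). With IL-4 alone it was 0.55 ± 0.34 and not called (95% interval -0.19 to 1.29, edgeR adjusted p = 0.53).

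Between the Wnt3a-treated groups, *Cish* was higher in the remainder 2.38-fold, 2.89-fold and 3.05-fold in mouse 1, 2 and 3, by the ratio of CPM. The fitted log2 fold change was 1.41 ± 0.25 (SE; edgeR adjusted p = 0.0043), and the call was lost without mouse 3 (1.35, edgeR adjusted p = 0.16). Of the 5 dendritic cell markers, 2 were tested, *Ccr7* and *Zbtb46*, and both were called higher in the remainder than in untreated cells. Between the remainder and the difference, 0 of these 2 were called. The log2 fold change of *Ccr7* against untreated cells was 3.94 in the difference and 5.41 in the remainder. *Ccr7* had 2 to 6 counts in the untreated and 4 to 8 in the IL-4 libraries. It thus passed the count filter only through the Wnt3a-treated groups and is given here as a description. The log2 fold change of *Zbtb46* was 0.34 in the difference (edgeR adjusted p = 0.65) and 1.56 in the remainder (edgeR adjusted p = 0.011), where it had 0.807 to 1.72 CPM. The 5 dendritic cell markers together summed to 0.965 to 1.4 CPM in untreated cells, 1.59 to 1.74 with IL-4, 2.98 to 7.67 in the difference and 8.48 to 21.1 in the remainder. *Flt3*, *Siglech* and *Xcr1* did not exceed 0.63 CPM in any library, and the part of these markers in the result was not tested.

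*Socs2*, a regulator of growth hormone signaling, was the lowest of the 8 genes per kb. It had 0.86, 0.386 and 0.439 CPM in untreated cells, from only 16, 6 and 7 counts, and 1.38, 1.21 and 0.577 CPM with IL-4. It had 2.12, 2.32 and 1.09 CPM in the difference and 3.29, 3.13 and 3.15 CPM in the remainder. Both Wnt3a-treated groups lay above the untreated libraries, and the difference overlapped the IL-4 values. *Socs2* rose by a log2 fold change of 2.46 ± 0.37 in the remainder (SE; edgeR adjusted p = 0.00019) and by 1.69 ± 0.39 in the difference (edgeR adjusted p = 0.0057). The latter call was lost without mouse 2 (1.29, edgeR adjusted p = 0.098). The change with IL-4 alone was 0.89 ± 0.42 and not called (edgeR adjusted p = 0.35). The remainder exceeded the difference by 0.77 without a call (95% interval 0.09 to 1.46, edgeR adjusted p = 0.2), with no overlap of these groups, as was so for 22.4% of all genes.

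*Socs3*, the inhibitor that binds gp130, rose in both Wnt3a-treated groups, and no difference between these was called. It had 12.2, 13.8 and 10.7 CPM in untreated cells and 12.8, 9.71 and 9.74 CPM with IL-4. It had 56.2, 40.2 and 38.2 CPM in the difference and 50.5, 27.7 and 34.0 CPM in the remainder. All 6 Wnt3a-treated libraries lay above all 6 others, the untreated and IL-4 values overlapped, and so did the difference and the remainder. The log2 fold change against untreated cells was 1.88 ± 0.21 in the difference (edgeR adjusted p = 2e-05), or 3.67-fold, and 1.61 ± 0.21 in the remainder (edgeR adjusted p = 6.7e-05), or 3.06-fold. With IL-4 alone it was -0.18 ± 0.22 (95% interval -0.66 to 0.30, edgeR adjusted p = 0.8), and the remainder differed from the difference by -0.27 (95% interval -0.70 to 0.17, edgeR adjusted p = 0.51). A 1.5-fold lower level in the remainder lies within this interval.

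*Socs5*, which has been linked to IL-4 receptor and EGF receptor signaling, moved in opposite directions with IL-4 and with Wnt3a. It had 41.0, 40.7 and 41.3 CPM in untreated cells and 51.4, 53.4 and 54.3 CPM with IL-4. It had 29.4, 33.8 and 31.7 CPM in the difference and 27.6, 34.6 and 31.1 CPM in the remainder. The untreated libraries lay within 1 CPM of each other, all IL-4 values lay above them and all 6 Wnt3a-treated values below. The log2 fold change with IL-4 was 0.37 ± 0.09 (SE; edgeR adjusted p = 0.041). This call was lost under 15 of 24 other settings, among them each mouse left out in turn. Over all 24 settings the values ran from 0.32 to 0.40. The adjusted p ran from 0.0089 (DESeq2, where the call was kept) to 0.52 (edgeR, without mouse 3). Against untreated cells *Socs5* fell by 0.37 on the log2 scale in the difference (edgeR adjusted p = 0.0095) and by 0.40 in the remainder (edgeR adjusted p = 0.0057). Both calls were lost without mouse 3 (-0.37 with edgeR adjusted p = 0.16 and -0.39 with edgeR adjusted p = 0.14). The difference and the remainder differed by -0.02, and this was not called.

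*Socs6* (ENSMUSG00000056153, minus strand of chr18:88665224-88927481), a member that targets receptor tyrosine kinases such as KIT, was lower in the Wnt3a-treated groups. It had 28.9, 22.9 and 29.1 CPM in untreated cells, 27.4, 28.4 and 27.6 CPM with IL-4, 20.7, 16.7 and 17.2 CPM in the difference, and 21.2, 20.8 and 20.0 CPM in the remainder. The untreated library of mouse 2 was the lowest of the 6 libraries without Wnt3a and still lay above all 6 Wnt3a-treated libraries. *Socs6* fell by 0.56 on the log2 scale in the difference (SE 0.11; edgeR adjusted p = 0.0025), a call lost without mouse 3 (-0.47, edgeR adjusted p = 0.13). In the remainder it fell by 0.38 (SE 0.11; edgeR adjusted p = 0.023), and this call was lost under 8 of 24 other settings, for example with only the compared groups in the fit (-0.39, edgeR adjusted p = 0.071), without mouse 1 (-0.35, edgeR adjusted p = 0.1) and without mouse 3 (-0.30, edgeR adjusted p = 0.34), and without the untreated or the remainder library of either mouse alone (-0.39 to -0.33, edgeR adjusted p from 0.052 to 0.099). The log2 fold change with IL-4 alone was 0.04 (95% interval -0.20 to 0.29).

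*Socs4* and *Socs7* were not called in any comparison. *Socs4* had 31.6, 16.7 and 27.7 CPM in untreated cells, 22.7, 22.9 and 30.1 CPM with IL-4, 28.9, 20.6 and 22.2 CPM in the difference, and 17.5, 27.2 and 20.4 CPM in the remainder. Its groups overlapped throughout, and mouse 2 was the lowest of the untreated libraries and the highest of the remainder libraries. Without mouse 2, *Socs4* was called lower in the remainder than in untreated cells (-0.64, edgeR adjusted p = 0.014), against -0.23 with all mice (95% interval -0.71 to 0.25). *Socs7* had 36.0, 40.9 and 45.0 CPM in untreated cells, 41.2, 43.3 and 41.0 CPM with IL-4, 34.2, 37.3 and 37.3 CPM in the difference, and 39.7, 36.8 and 39.6 CPM in the remainder. Its log2 fold change against untreated cells was 0.04 with IL-4 (95% interval -0.16 to 0.24), -0.16 in the difference (-0.36 to 0.03) and -0.07 in the remainder (-0.27 to 0.13), so that its intervals exclude a 1.5-fold change in either direction.

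**Figure D3:**
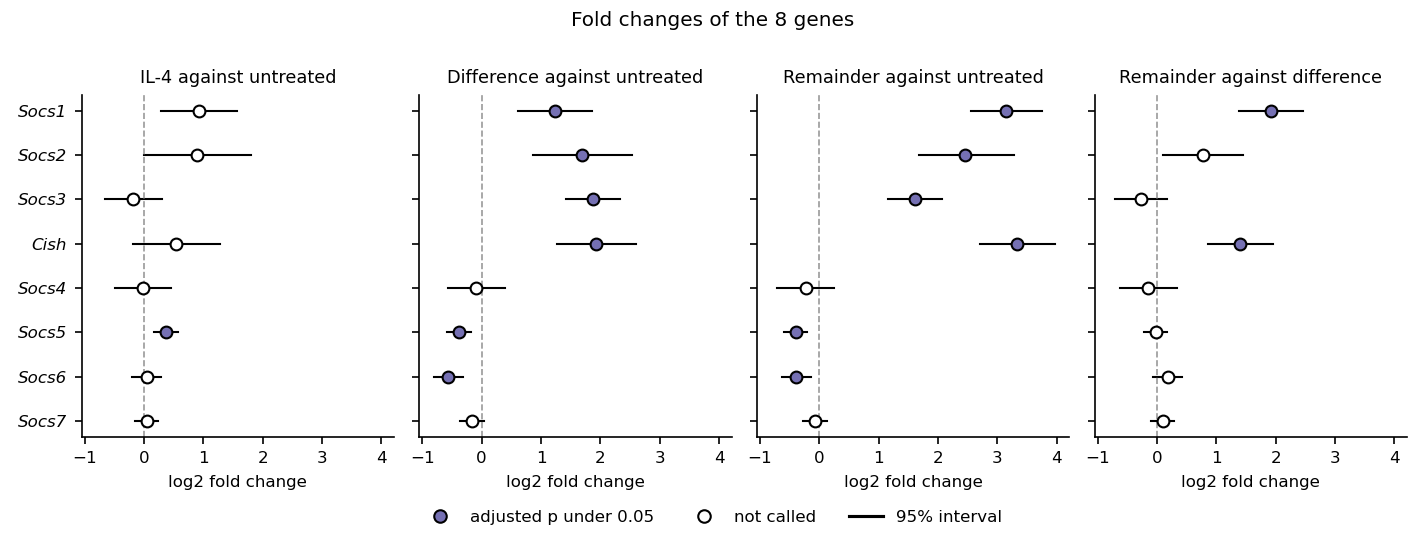
Log2 fold changes of the 8 genes (points, filled where the edgeR adjusted p is under 0.05) with 95% intervals (lines), in the 3 comparisons with untreated cells and between the Wnt3a-treated groups. *Socs1* and *Cish* have the largest values in the remainder (3.15 and 3.33) and the only filled points between the remainder and the difference.

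The Wnt3a-treated groups were also compared with IL-4-treated cells. In the difference, 2 of 8 were called higher and 2 lower, where 20.3% of all genes were called (10% higher and 10.3% lower) and 38.6% had groups that did not overlap. *Socs3* was higher by a log2 fold change of 2.06 (edgeR adjusted p = 8.3e-06) and *Cish* by 1.38 (edgeR adjusted p = 0.0034). *Socs5* fell by 0.75 (edgeR adjusted p = 3.9e-05) and *Socs6* by 0.61 (edgeR adjusted p = 0.0014), the latter no longer called without mouse 3 (-0.56, edgeR adjusted p = 0.08). *Socs1* differed from its IL-4 level by 0.31 (95% interval -0.28 to 0.90) and was not called. In the remainder, 4 of 8 were called higher and 2 lower, where 20.3% of all genes were called (10.6% higher and 9.67% lower) and 35.9% had groups that did not overlap. The values were 2.79 for *Cish* (edgeR adjusted p = 6.9e-06), 2.22 for *Socs1* (edgeR adjusted p = 2.3e-05), 1.79 for *Socs3* (edgeR adjusted p = 3.7e-05) and 1.57 for *Socs2* (edgeR adjusted p = 0.0043), and *Socs5* fell by 0.77 (edgeR adjusted p = 3.6e-05) and *Socs6* by 0.43 (edgeR adjusted p = 0.015). The call of *Socs6* was lost without mouse 2 (-0.39, edgeR adjusted p = 0.051), without mouse 3 (-0.39, edgeR adjusted p = 0.24), and without the IL-4 library of mouse 2 (-0.41) or mouse 3 (-0.42) or the remainder library of mouse 3 (-0.41) alone.

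The design asks whether IL-4 acts on a gene alike with and without Wnt3a, and this was tested as an interaction under both ways of assigning the sets of counts. In the first assignment, IL-4 was given to the cells of the remainder, and in the other, to those of the difference. Under the first, 0 of 8 genes were called by edgeR, where 0.105% of all genes were called (0.0403% higher and 0.0644% lower), and 1576 of the 12421 genes had an unadjusted p under 0.05. *Socs1* had an interaction of 0.99 (95% interval 0.15 to 1.83, edgeR adjusted p = 0.31) and *Cish* of 0.86 (edgeR adjusted p = 0.43), so that the IL-4 effect was larger with Wnt3a by these values without a call. Under the other assignment, 2 of 8 were called, where 7.33% of all genes were called (2.91% higher and 4.42% lower). The IL-4 effect on *Socs1* was then lower with Wnt3a than without by 2.84 on the log2 scale (-2.84, edgeR adjusted p = 0.00028), and that on *Cish* by 1.95 (-1.95, edgeR adjusted p = 0.011). *Cish* was not called without mouse 3 (-1.79, edgeR adjusted p = 0.2). *Socs2* had -1.67 (edgeR adjusted p = 0.075), which was called with the mouse as a block (-1.71, edgeR adjusted p = 0.047), without the untreated library of mouse 1 (-2.14, edgeR adjusted p = 0.037) and without the IL-4 library of mouse 3 (-1.92, edgeR adjusted p = 0.041). The sign for *Socs1* and *Cish* thus depends on the assignment, whereas *Socs5* had -0.40 and -0.35 under the first and the other assignment, neither of them called.

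**Figure D4:**
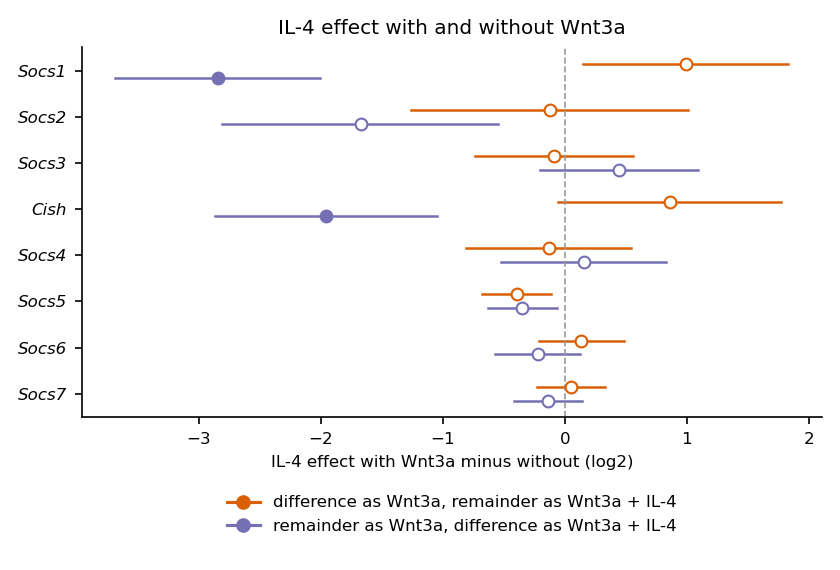
The IL-4 effect with Wnt3a minus that without Wnt3a for each gene, as a log2 value (point, filled where the edgeR adjusted p is under 0.05) with its 95% interval (line), with the remainder as the IL-4-treated cells (orange) and the reverse (purple). *Socs1* lies at 0.99 and -2.84 and *Cish* at 0.86 and -1.95 under the 2 assignments, while the intervals of *Socs3*, *Socs4*, *Socs6* and *Socs7* include 0 under both.

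Across the 12 libraries, which share treatments and mice, *Socs1* and *Cish* had the highest correlation between members (Pearson r = 0.953 of log2 CPM), and *Socs2* and *Cish* had r = 0.885. *Socs3* ran opposite to *Socs5* (r = -0.926) and to *Socs6* (r = -0.866). The genes outside the family whose log2 CPM was most correlated with *Socs1* were *Aifm2* (r = 0.975), *Ceacam19* (r = 0.946) and *Glrx* (r = 0.944). Those most correlated with *Cish* were *Mov10* (r = 0.979), *Il1rn*, the IL-1 receptor antagonist (r = 0.975), and *Lad1* (r = 0.973), and with *Socs3* they were *Uchl1* (r = 0.99), *Parp3* (r = 0.988) and *Sp110* (r = 0.985). *Lad1* and *Ccl22*, the latter a chemokine of alternatively activated macrophages, were also among the 3 genes most correlated with *Socs2* (r = 0.941 and 0.944). *Ctsk* (r = 0.945) was the other gene nearest to *Socs2*. *Antxr2*, *Rtn4* and *Bcor* were nearest to *Socs5* (r = 0.984, 0.969 and 0.968), *Stau2*, *Tcf7l2* and *Smad5* to *Socs6* (r = 0.947, 0.944 and 0.941), *Relch*, *Impact* and *Tug1* to *Socs4* (r = 0.978, 0.97 and 0.966) and *Trim35*, *Cd72* and *Fam219b* to *Socs7* (r = 0.913, 0.9 and 0.893). These are descriptions over 12 libraries in 4 groups, and any gene that moves with the treatment has a high value.

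Several of the kinases and transcription factors that SOCS proteins restrain rose in the Wnt3a-treated groups, and 0 of them fell. Of the 11 JAKs and STATs, 6 were called higher and 0 lower in the difference, 7 were called higher and 0 lower in the remainder, and 0 were called with IL-4. The share of all genes tested that was called higher was 11.8% for the difference and 13.6% for the remainder. IL-4 alone had only 3.4% of all genes called in either direction, so 0 of 11 does not set this list apart there. The list's median log2 fold change was 0.40 in the difference and 0.34 in the remainder. *Jak2* had a log2 fold change of 1.67 ± 0.23 in the difference (edgeR adjusted p = 0.00012) and 1.70 ± 0.23 in the remainder (edgeR adjusted p = 8.5e-05). *Stat2*, a STAT of the type I interferon response, had 1.27 ± 0.12 (edgeR adjusted p = 2.5e-06) and 1.46 ± 0.12 (edgeR adjusted p = 5.3e-07). Between the Wnt3a-treated groups, *Stat5a*, of which 8.52% of the 50-base stretches occur in another gene, mainly *Stat5b*, was higher in the remainder (0.47, edgeR adjusted p = 0.013). That call was lost without mouse 1 (0.37, edgeR adjusted p = 0.09), without mouse 3 (0.48, edgeR adjusted p = 0.23) and without the difference library of mouse 3 (0.46, edgeR adjusted p = 0.059) or the remainder library of mouse 1 (0.39, edgeR adjusted p = 0.057).

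Receptor chains moved both ways. Of 24 listed, 19 were tested, with 8 higher and 5 lower in the difference, 9 higher and 3 lower in the remainder, and 3 higher and 0 lower with IL-4. The share called was 68.4% in the difference and 63.2% in the remainder, against 23.2% and 25.3% of all genes tested. With IL-4 it was 15.8%, against 3.4% of all genes. *Il2rg*, the common gamma chain of the IL-4 receptor, rose by a log2 fold change of 1.46 in the difference (edgeR adjusted p = 5.4e-08) and 1.50 in the remainder (edgeR adjusted p = 2.9e-08), although 27.5% of its 50-base stretches occur in *Gm20489*. *Il21r* rose by 1.13 in the difference (edgeR adjusted p = 4.5e-07), and its mean was 42.1 CPM in untreated cells, 92.2 in the difference and 100.7 in the remainder. *Ifngr1*, a chain of the interferon gamma receptor, fell by 0.65 and 0.87 (edgeR adjusted p = 0.00019 and 1.2e-05), *Il10rb* fell by 0.48 in the difference (edgeR adjusted p = 0.00039) and *Il10ra* by 0.51 in the remainder (edgeR adjusted p = 0.00042). Means of *Il10rb* were 305.5 CPM in untreated cells, 218.9 in the difference and 263.2 in the remainder. Those of *Il10ra* were 414.3, 330.7 and 290 CPM in the same order. *Csf2rb*, the common beta chain of the GM-CSF receptor, was higher with IL-4 (0.66, edgeR adjusted p = 0.0019), not called without mouse 3 (0.73, edgeR adjusted p = 0.052), in the difference (1.13, edgeR adjusted p = 2.6e-06) and in the remainder (1.47, edgeR adjusted p = 1.8e-07). Its close copy *Csf2rb2* was higher with IL-4 (0.62, edgeR adjusted p = 0.0018), and 12.3% of the 50-base stretches of *Csf2rb* and 18.9% of those of *Csf2rb2* occur in another gene, mainly each other. Between the Wnt3a-treated groups, 1 chain was called, or 5.26% of those tested, near the 5.25% of all genes. It was *Il13ra1*, which was lower in the remainder (-1.08, edgeR adjusted p = 0.0039) and not called without mouse 3 (-1.09, edgeR adjusted p = 0.14).

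Most ligands of these receptors had too few counts to be tested, and 5 of the 15 listed were tested. *Il10* fell by 1.43 on the log2 scale in the difference (edgeR adjusted p = 0.004), not called without mouse 3 (-1.28, edgeR adjusted p = 0.062), and by 1.98 in the remainder (edgeR adjusted p = 0.00048). The log2 fold change of *Il7* was 1.44 in the difference and 1.54 in the remainder. *Il7* had 5 to 12 counts in the untreated and 6 to 9 in the IL-4 libraries, 17 to 39 in the difference and 23 to 33 in the remainder. It thus passed the count filter only through the Wnt3a-treated groups and is given here as a description, although its calls are counted below. In the difference the call of *Il7* was lost without mouse 1 (0.67, edgeR adjusted p = 0.25), or its untreated (1.06) or difference library (1.03) alone, and without mouse 3 (1.69, edgeR adjusted p = 0.093). In the remainder it was lost without mouse 3 (1.77, edgeR adjusted p = 0.078). The calls of *Il15* (0.40) and *Osm* (-0.42) in the difference and of *Osm* with IL-4 (-0.59) were lost with any 1 of the 3 mice left out. That of *Il4* in the remainder (-0.70) was lost under 19 of 24 other settings, the mouse as a block among them (-0.69, edgeR adjusted p = 0.068). In the remainder 1 ligand was thus called higher and 2 lower, in the difference 2 and 2, and with IL-4 0 and 1. These were 60%, 80% and 20% of the 5 tested, *Il7* included, against 25.3%, 23.2% and 3.4% of all genes tested.

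Other inhibitors of JAK-STAT signaling were all tested. Of these 13, 1 rose and 2 fell in the difference, 1 rose and 3 fell in the remainder, and 1 rose and 0 fell with IL-4. The share called was 23.1% in the difference and 30.8% in the remainder, near the 23.2% and 25.3% of all genes tested. With IL-4 it was 7.69%, against 3.4% of all genes. *Usp18*, which restrains the type I interferon receptor, rose by 1.83 ± 0.18 in the difference (edgeR adjusted p = 5.7e-06) and 2.04 ± 0.18 in the remainder (edgeR adjusted p = 1.8e-06). *Sh2b3*, an adaptor that restrains JAK2, fell by 0.53 and 0.46 (edgeR adjusted p = 6.4e-05 and 0.00018), and *Ptpn6*, which encodes the phosphatase SHP-1, fell by 0.39 in the remainder (edgeR adjusted p = 0.0018), not called without mouse 2 (-0.28, edgeR adjusted p = 0.052) or mouse 3 (-0.40, edgeR adjusted p = 0.064). *Cblb*, a ubiquitin ligase, had 109 ± 3.15 CPM in untreated cells, 174 ± 10.9 with IL-4, 73.9 ± 3.06 in the difference and 116 ± 4.25 in the remainder (SD, n = 3). It was called higher with IL-4 (0.67, edgeR adjusted p = 5.3e-05), lower in the difference (-0.56, edgeR adjusted p = 4.7e-05) and higher in the remainder than in the difference (0.65, edgeR adjusted p = 8e-05). *Ptprc*, which encodes CD45, was lower in the remainder than in the difference (-1.04, edgeR adjusted p = 0.023), a call lost under 8 of 24 other settings, among them without mouse 1 (-0.76, edgeR adjusted p = 0.18) or mouse 3 (-1.01, edgeR adjusted p = 0.37).

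Genes of the ubiquitin ligase that the SOCS box recruits, with other SOCS-box proteins, had 19 of 20 tested. Of these, 3 rose and 4 fell in the difference, 4 rose and 3 fell in the remainder, and 0 rose and 1 fell with IL-4. Between the Wnt3a-treated groups 0 were called by edgeR, where 5.25% of all genes were called and 2364 had an unadjusted p under 0.05. The share called was 36.8% in each Wnt3a-treated group, against 23.2% and 25.3% of all genes tested. With IL-4 it was 5.26%, against 3.4% of all genes. *Spsb1*, which targets inducible nitric oxide synthase, rose by 1.54 ± 0.26 in the difference (edgeR adjusted p = 0.00054) and 1.80 ± 0.25 in the remainder (edgeR adjusted p = 0.00011). *Asb2*, counted among those that fell in all 3 comparisons, had 17 to 34 counts in the untreated libraries and 1 to 6 in all others. It thus passed the count filter only through the untreated group, was tested under only 16 or 17 of the 24 other settings, and is given here as a description. *Wsb1* fell by 0.75 in the difference (edgeR adjusted p = 0.0026), not called without mouse 3 (-0.81, edgeR adjusted p = 0.057), and by 0.87 in the remainder (edgeR adjusted p = 0.00072). The calls of *Spsb4* (0.64 and 0.63) were lost with any 1 of the 3 mice left out.

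**Figure D5:**
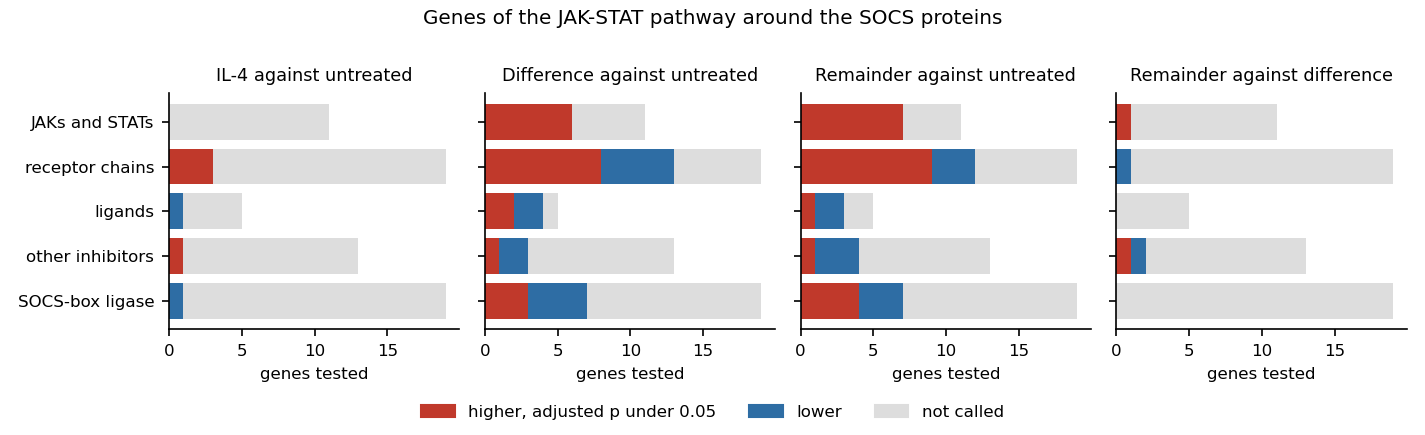
Number of tested genes called higher (red), lower (blue) or not called (grey) by edgeR at an adjusted p of 0.05, in 5 lists of genes around the SOCS proteins and 4 comparisons. JAKs and STATs were called only in the higher direction (6 of 11 in the difference and 7 of 11 in the remainder), and receptor chains in both directions.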

How the data were processed

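Per the labels, RNA of BMDMs of 3 mice was sequenced in 4 conditions as single reads. The authors deposited raw counts per gene in 12 columns; the submitters' processing notes name Trimmomatic 0.36, STAR 2.6.0 and HTSeq 0.11.1, and the build mm10. The strand setting is not given in the sources used here, and no column was unused. Difference and remainder were computed from the deposited counts as described above, since 0 genes broke the bounds within a mouse. Symbols were paired for 48058 of 48526 identifiers, and exons and shared 50-base stretches came from GENCODE vM21 on the same build. A gene was tested if it reached 10 counts in 3 or more of the 12 libraries, using edgeR 4.0.16 under R 4.3.3 (TMM, quasi-likelihood, 1 fit of 4 groups, no term for the mouse), and the code was tested on simulated data. DESeq2 1.42.0 was an alternative. Replicate libraries differed by more than sampling noise (chi-square per degree of freedom of at least 3.65), so none was counted as a repeat.

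The members and lists were chosen with earlier results of these data known. All members are reported. Of each list and comparison with untreated cells or between the Wnt3a-treated groups, up to 2 called genes with the highest and up to 2 with the lowest log2 fold change are named. Correlated genes are the 3 with the highest Pearson r of log2 CPM (prior count 2) among tested genes averaging 8 CPM or more. Levels of *Cblb*, *Il21r*, *Il10ra* and *Il10rb* and the marker genes given with values were singled out after their values were seen. So were *Csf2rb* in the difference and *Il6st* with IL-4. The mouse pairs the samples by the labels; across genes, deviations from the group means had correlations from -0.417 to 0.454 in 18 pairs of same-mouse libraries, 6 of them over 0.1. Intervals cover the spread over these libraries only.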

Additional observations from a re-analysis of the deposited data

Results flagged for a closer look

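The effect of IL-4 on *Socs1* and *Cish* differed with and without Wnt3a by the interaction test under the other assignment, in which the cells of the difference received IL-4. The interaction was -2.84 for *Socs1* (edgeR adjusted p = 0.00028) and -1.95 for *Cish* (edgeR adjusted p = 0.011). Under the first assignment the values were 0.99 (edgeR adjusted p = 0.31) and 0.86 (edgeR adjusted p = 0.43), with the opposite sign and no call. In each of 3 mice the remainder was the higher of the Wnt3a-treated sets of counts for both genes, and the labels do not say which set received IL-4.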

How the results depend on the processing

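Over 24 alternative settings, 1520 values of the 8 genes in 8 comparisons gave 1463 with the same direction and side of the threshold, 44 called genes that lost the call and 13 that gained it, and 0 called values that changed sign; 50 values called in neither fit changed sign, at most 0.61 in size. Of the 8 genes, the number called with IL-4 went from 1 to 0 with total counts as the scaling, 2 with the mouse as replicate block and 0 at a threshold of 0.01. It went from 2 to 0 between remainder and difference with the columns as labelled, which share reads, from 0 to 1 in the interaction of the first assignment with all genes of at least 1 count (*Socs1*, edgeR adjusted p = 0.046), and from 2 to 0 (columns) and 1 (threshold 0.01) in the other. The replicate block otherwise changed, among the calls named, those of *Socs2* and *Il4* given above. Leaving out 1 replicate gave 0 to 1, 3 to 6, 4 to 7, 0 to 2, 3 to 4, 5 to 6, 0 to 0 and 1 to 3 of the 8 in the order IL-4, difference and remainder against untreated, remainder against difference, difference and remainder against IL-4, and the interaction of the first and the other assignment. Over all genes in the same order, main counts were 422, 2884, 3137, 652, 2519, 2521, 13 and 910, and leaving out 1 replicate gave 77 to 532, 1220 to 3188, 1375 to 3807, 97 to 1188, 1208 to 2805, 1043 to 3052, 0 to 43 and 265 to 1459. A threshold of 0.01 left 227, 1687, 1960, 279, 1659, 1575, 0 and 472. With all genes of at least 1 count, the calls were 812 for IL-4, 1454 between remainder and difference, and 575 and 1505 for the interactions. The columns as labelled gave 708 for IL-4, 0 between the Wnt3a groups, and 142 and 311 for the interactions. Only the groups compared gave 422 between remainder and difference, and DESeq2 gave 165 for the interaction of the first assignment. The cause of these shifts was not tested beyond the shared reads and fewer samples. Without TMM, *Socs7* was called lower in the difference than in untreated (-0.25, edgeR adjusted p = 0.032) and IL-4-treated cells (-0.24, edgeR adjusted p = 0.042). Low counts limit *Socs2*, with 6 to 16 counts in untreated libraries.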

Other observations

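Against IL-4-treated cells, the JAKs and STATs were again called in 1 direction, with 6 of 11 higher and 0 lower in the difference and 7 higher and 0 lower in the remainder, where 10% and 10.6% of all genes were called higher. *Stat2* was higher by a log2 fold change of 1.33 and 1.52 (edgeR adjusted p = 1.4e-06 and 5e-07). *Il6st*, which encodes gp130, the receptor chain that SOCS3 binds, had 138 to 155 CPM in untreated cells, 209 to 233 with IL-4, 109 to 124 in the difference and 123 to 157 in the remainder (ranges over 3 mice). *Il6st* was called higher with IL-4 than in untreated cells (0.58, edgeR adjusted p = 0.0022). Against this higher IL-4 level it was lower by 0.91 on the log2 scale in the difference and by 0.62 in the remainder (edgeR adjusted p = 6.3e-06 and 0.00024). Its remainder range overlapped that of untreated cells. *Cblb* fell by 1.24 and 0.59 against IL-4-treated cells (edgeR adjusted p = 2.6e-08 and 3.1e-05). Among the other inhibitors, 1 of 13 was called higher and 2 lower in the difference, and 1 higher and 3 lower in the remainder, where 20.3% of all genes were called in each. *Usp18* was the higher gene, by 2.06 and 2.27 (edgeR adjusted p = 1.9e-06 and 9.9e-07), and *Sh2b3* was lower in both (-0.46 and -0.39, edgeR adjusted p = 0.00021 and 0.00098), the latter not called without mouse 3 (-0.40, edgeR adjusted p = 0.053).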
